A study of Drosophila melanogaster with 4 samples.

Results

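The tracheal branching genes followed here in wing discs are trh, btl, bnl, dys, tgo, emp, pio and rib. Out of 15627 named genes in the expression table, these 8 were chosen by symbol as tracheal determinants, FGF signalling genes and tube genes. The rule uses no measured value, but the choice was made with earlier results of these data known. All 8 had a row. Wing imaginal discs are the sacs of larval epithelium from which wing and dorsal thorax develop, and each carries an attached branch of the tracheal tree. The series holds 4 samples from discs of Drosophila melanogaster larvae in the third instar, kept at 25 °C. A library of H4K20me1 chromatin and its input were not used here, which left 1 RNA library per genotype. The wild type was the driver line Act5c-Gal4, in which an actin promoter expresses the activator GAL4 ubiquitously from the insertion P{Act5C-GAL4}25FO1, held over the balancer chromosome CyO, y+. The Polycomb RNAi discs carried the same insertion together with UAS-dsRNA Polycomb, a GAL4-driven transgene for double-stranded RNA, and came from driver females crossed to males with that transgene. Both genotypes were labelled with the alleles y1 and w* and with the driver, and the balancer was named for the wild type alone. The labels give no number of pooled larvae.

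The insect trachea is a network of epithelial tubes that brings air to the tissues. Tracheal fate is set by Trachealess, a bHLH-PAS transcription factor that acts as a dimer with the broadly expressed partner Tango. Branches then grow towards cells that secrete the FGF Branchless, which is read by the receptor Breathless on tracheal cells. In the wing disc, Branchless made by a patch of disc epithelium draws out the air sac primordium from the attached trachea, so ligand and receptor are made in different tissues of the same sample.

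The members spanned a wide range of levels. In wild type the order from high to low was pio, emp, tgo, trh, dys, btl, bnl and rib. The level of pio was 250.4 times that of bnl, both in FPKM, a unit per kilobase of transcript that allows genes to be set side by side. In the Polycomb RNAi library dys and btl changed places and the order was otherwise the same. With 1 library per genotype there is no spread between replicates, so no neighbours in either order can be said to differ, and no p-value is given. Values here compare these 2 libraries and have no replicate check.

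**Figure D1:**
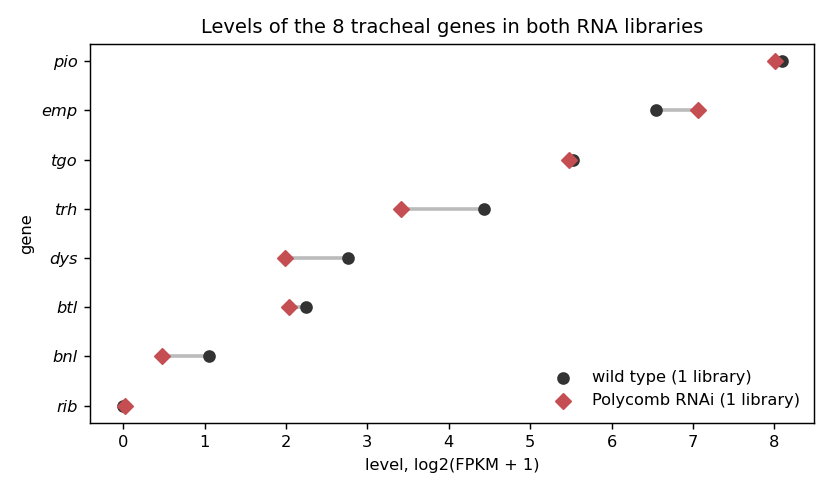
Levels of the 8 genes on the log2(FPKM + 1) scale (x axis) by gene (y axis), with a dark circle for the wild-type library and a red diamond for the Polycomb RNAi library. The symbols lie close together for pio and tgo, the diamond lies to the left for trh, dys and bnl, and to the right for emp.

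A difference below is log2((Polycomb RNAi FPKM + 1)/(wild-type FPKM + 1)), where the added 1 understates changes of genes with low levels. Genes reaching 1 FPKM in either library were compared, and a gene at least 2-fold apart on this scale was counted as higher or lower. Of the 8 members, 7 were compared. Among them 1 was at least 2-fold lower in Polycomb RNAi, 0 were at least 2-fold higher and 6 lay within 2-fold. Of all 8800 compared genes, 3.20% were at least 2-fold lower and 4.41% at least 2-fold higher. The single gene makes 14.3% of 7, a share of so few genes that nothing is read from it. The difference was below 0 in 6 of the 7 members and above 0 in emp, beside 50.6% of all compared genes below 0. For tgo (-0.05) and pio (-0.08) it lay between the quartiles of all compared genes, so nothing is read from this count either. The members' median difference was -0.21, and -0.14 with rib included, beside a median of -0.0032 and quartiles of -0.14 and 0.14 over all compared genes. With a minimum of 5 FPKM, which leaves out btl and bnl, the members' median was -0.08, so nothing is read from the median.

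**Figure D2:**
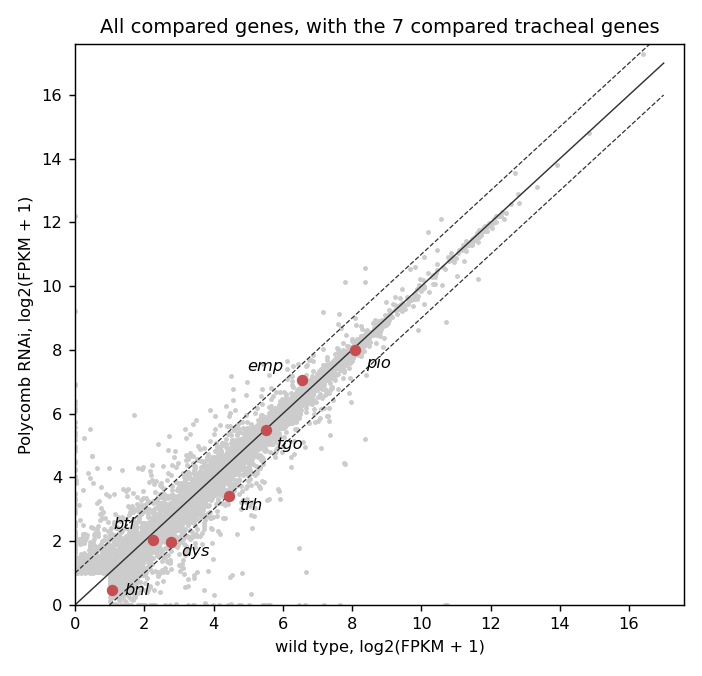
Level in Polycomb RNAi (y axis) against level in wild type (x axis), both as log2(FPKM + 1), for the 8800 compared genes in grey and 7 tracheal genes in red. The solid line marks equal values and the dashed lines 2-fold on this scale, and trh lies just below the lower dashed line.

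The tracheal selector gene trh (FBgn0262139) was the member at least 2-fold lower. It stood at 20.7 FPKM in the wild-type library and 9.65 FPKM in the RNAi library, a ratio in FPKM of 0.467. Its difference was -1.02, just past the 2-fold threshold, and 3.06% of all compared genes had a more negative one. The gene went from rank 4602 to rank 6368 among the 15627 named genes. In bulk discs, fewer tracheal cells and less trh RNA per cell cannot be told apart. A row spelled Trh, a symbol that has been used for tryptophan hydroxylase genes, is separate and was listed at 0 in both libraries.

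The gene dys (FBgn0039411, now dysf) encodes Dysfusion, a bHLH-PAS protein of the fusion cells that join neighbouring tracheal branches in the embryo. Its level was 5.78 FPKM in the wild-type library and 2.96 FPKM in the RNAi library, a ratio of 0.512 and a difference of -0.78, within 2-fold. A difference at least this large in either direction was seen in 10.9% of compared genes. The levels of trh and dys kept a similar proportion, with trh at 3.57 times dys in wild type and 3.26 times in Polycomb RNAi. Rows carry a symbol and no gene identifier. The row dys was taken as dysf because the muscle gene Dystrophin has a row of its own, Dys.

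The shared partner gene tgo (FBgn0264075), the fly counterpart of mammalian ARNT, was nearly equal in both libraries. Its level was 45.0 FPKM in the wild-type library and 43.3 FPKM in the RNAi library, a difference of -0.05. The level of tgo was 2.18 times that of trh in wild type and 4.49 times in Polycomb RNAi. Against dys it was 7.78 times in wild type and 14.6 times in Polycomb RNAi. The values of the dimer partner were thus close while those of the 2 tracheal bHLH-PAS genes were lower, by at least 2-fold for trh alone. Outside the set, the bHLH-PAS gene ss was also lower, within 2-fold (-0.87). It is 1 of 5 further bHLH-PAS and related genes compared below, whose median was -0.07.

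Both FGF genes of the set had low levels. The receptor gene btl (FBgn0285896) was 3.74 FPKM in the wild-type library and 3.11 FPKM in the RNAi library, a difference of -0.21. The ligand gene bnl (FBgn0014135) was 1.08 FPKM in wild type, just above the minimum of 1 FPKM, and 0.388 FPKM in Polycomb RNAi. That is a ratio of 0.359 in FPKM, the smallest among the 7 compared members. On the scale with the added 1 the difference of bnl was -0.58, within 2-fold, and -1.28 with a pseudocount of 0.1, past it. With that pseudocount 4.72% of all compared genes were at least 2-fold lower, and with bnl and trh 2 of the 7 members were. The file gives no read counts, so how many reads stand behind these bnl values is unknown. The level of btl was 3.46 times that of bnl in wild type and 8.02 times in Polycomb RNAi.

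The 2 tube genes were the most abundant members, and in bulk discs the tissue that made their RNA cannot be told. The gene pio (FBgn0020521) encodes Piopio, a ZP domain protein of the apical matrix that keeps tracheal tubes connected. It was 270.9 FPKM in the wild-type library and 256.8 FPKM in the RNAi library, a difference of -0.08. In wild type 97.7% of named genes had a lower level than pio. The gene emp (FBgn0010435) encodes a class B scavenger receptor of the CD36 family that takes part in clearing proteins from the tracheal lumen. It was 92.7 FPKM in the wild-type library and 132.8 FPKM in the RNAi library, a ratio of 1.43 and a difference of 0.51, within 2-fold. It was the member with a higher value in the RNAi library, and 91.0% of compared genes had a lower difference.

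The gene rib (FBgn0003254), which encodes the BTB domain factor Ribbon needed for branch outgrowth in the embryo, was listed at 0 FPKM in the wild-type library and 0.0144 FPKM in the RNAi library. It stayed below the minimum in both libraries and was not compared. A listed 0 can also be a failed estimate, and 4170 genes of the wild-type column and 3292 of the RNAi column held one.

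**Figure D3:**
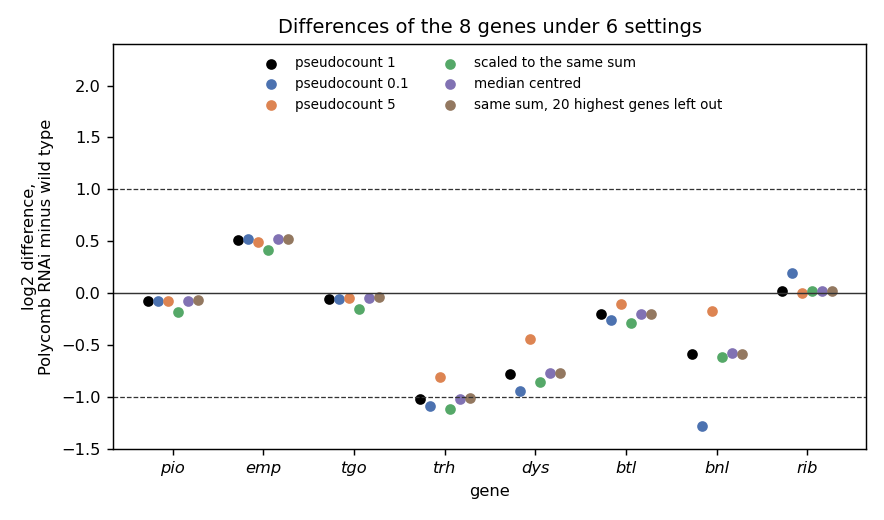
Log2 difference between Polycomb RNAi and wild type (y axis) of the 8 genes (x axis) under 6 settings of pseudocount and scaling, with dashed lines at 2-fold. The points of trh lie between -1.12 and -0.81, those of bnl between -1.28 and -0.17, and those of emp between 0.41 and 0.52.

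Whether trh and bnl counted as lower depended on the pseudocount. The difference of trh lay between -1.12 and -0.81 over 6 settings, and within 2-fold with a pseudocount of 5, at -0.81, where 0 members and 1.22% of all compared genes were at least 2-fold lower. The differences of dys lay between -0.94 and -0.44 and those of btl between -0.28 and -0.11. For these 3 genes, and for bnl, tgo and pio, the value was lower in Polycomb RNAi in all 6 settings, and that of emp was higher in all 6.

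Coding genes adjacent to the members in the Release 6 gene order were read beside them. The coding neighbours of trh, CG13884 (0.257 and 0.369 FPKM in the wild-type and RNAi libraries) and CG13891 (0.132 and 0.616 FPKM), stayed below 1 FPKM. Next to dys, CG31324 was at least 2-fold higher, at 1.03 FPKM in the wild-type library and 3.63 FPKM in the RNAi library, a difference of 1.19 opposite in sign to that of dys. The neighbour of dys on its other side, CG14551, was 0.865 and 0.381 FPKM. The neighbours of emp are 2 further class B scavenger receptor genes, CG2736 (12.6 and 12.9 FPKM) and CG3829 (3.63 and 3.23 FPKM), whose differences were 0.03 and -0.13. The neighbours of tgo were CG11986 (15.6 and 14.8 FPKM) and neur (6.36 and 4.63 FPKM), both within 2-fold, as were CG8100 beside btl (8.18 and 10.8 FPKM) and CG11906 beside rib (11.9 and 11.4 FPKM). The neighbours of bnl and pio, and CG7229 beside rib, stayed below 1 FPKM in both libraries. Neighbours were read after the values of the members were known. The libraries hold no strand information, so reads of overlapping genes cannot be separated.

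The 3 genes nearest to trh over the 2 libraries, by Euclidean distance on the log2(FPKM + 1) scale, were the Methuselah-like receptor gene mthl8 (20.9 and 9.69 FPKM in the wild-type and RNAi libraries, distance 0.02), snoRNA:lola-b (19.6 and 9.58 FPKM, distance 0.07) and snoRNA:Dek-a (21.0 and 10.2 FPKM, distance 0.08). A likeness over 2 libraries says only that both levels are close.

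Lists of related genes were placed around the members by role. Of 90 distinct compared genes in the 8 lists, members left out, 3 (3.33%) were at least 2-fold lower and 0 at least 2-fold higher. Over all compared genes the shares were 3.20% lower and 4.41% higher, and nothing is read from these counts. The 3 lower genes were obst-A, m and ci. The median difference of the 90 genes was -0.05.

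**Figure D4:**
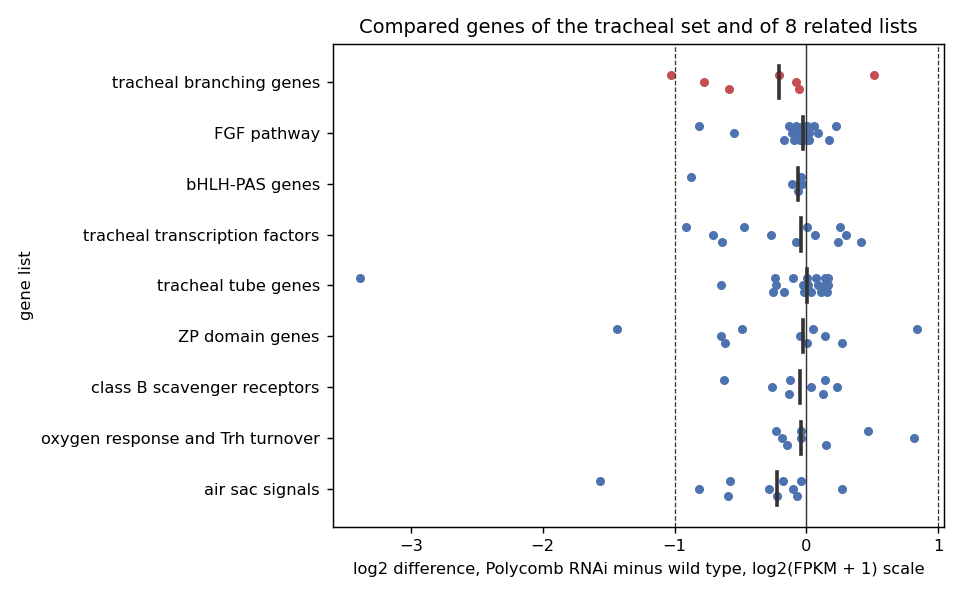
Log2 difference between Polycomb RNAi and wild type (x axis) of each compared gene in the tracheal set (red) and in 8 related lists (blue, y axis), with a black bar at each list's median and dashed lines at 2-fold. Medians of the lists lie between -0.22 and 0.01, and obst-A stands at -3.38.

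The other genes of FGF signalling lay within 2-fold. All 19 in the list, from the ligands to the kinase cascade and the enzymes that build heparan sulphate, were compared, and their median was -0.03. The largest difference was that of ths, one of the FGF ligands of the second fly receptor, Heartless, at 10.4 FPKM in the wild-type library and 5.52 FPKM in the RNAi library (-0.81). The other Heartless ligand gene, pyr, was 6.17 and 5.94 FPKM, and the receptor gene htl 6.74 and 6.60 FPKM. The gene stumps, which encodes the adaptor used by both FGF receptors, was 10.7 FPKM in both. In bulk discs the values of this list do not read the trachea alone, and htl and stumps also serve as myoblast markers below. The heparan sulphate synthesis gene sgl was 43.8 and 29.6 FPKM (-0.55), ttv 20.8 and 24.5 FPKM (0.22) and the phosphatase gene csw 19.8 and 22.5 FPKM (0.17). The feedback inhibitor gene sty, which is induced by Breathless signalling in embryonic trachea, was 24.5 and 21.6 FPKM. Of the FGF ligand genes, bnl and ths thus had the lower values in the RNAi library, both within 2-fold on this scale, and pyr was nearly equal.

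Of 9 further bHLH-PAS and related PAS genes, 5 were compared and all 5 lay within 2-fold, with a median of -0.07. The distal antenna and leg determinant ss, a relative of the aryl hydrocarbon receptor, was 6.91 FPKM in the wild-type library and 3.32 FPKM in the RNAi library (-0.87). The clock gene cyc was 41.3 and 38.2 FPKM, the ecdysone coactivator gene tai 21.0 and 20.01 FPKM, and the hypoxia factor gene sima 36.8 and 35.7 FPKM. The midline determinant sim, which like trh acts with Tango, was 0.0440 and 0.0221 FPKM and was not compared.

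Of 12 further tracheal transcription factors and regulators, all 12 were compared and lay within 2-fold, with a median of -0.04. The POU gene vvl, which acts beside trh in tracheal specification, was 118.6 FPKM in the wild-type library and 62.6 FPKM in the RNAi library, a difference of -0.91. With both libraries scaled to equal sums, vvl was just past 2-fold lower. The terminal branch and intervein factor gene bs was 34.0 and 20.4 FPKM (-0.71), the spalt gene salr 43.5 and 27.5 FPKM (-0.64) and the epithelial factor gene grh 65.5 and 47.0 FPKM (-0.47). The branch fate genes kni (25.4 and 31.6 FPKM) and knrl (7.33 and 10.1 FPKM) had higher values in the RNAi library, with differences of 0.30 and 0.42. Several of these factors, vvl, bs, salr and kni among them, also act in the disc epithelium, so their levels do not read the trachea alone.

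Of 20 tube and lumen genes, 19 lay within 2-fold and obst-A was at least 2-fold lower, with a list median of 0.01. The gene obst-A, which encodes a chitin-binding matrix protein, was 220.0 FPKM in the wild-type library and 20.2 FPKM in the RNAi library, a difference of -3.38. The chitin deacetylase gene verm was 267.0 and 226.5 FPKM (-0.24), the chitin-binding protein gene Gasp 107.1 and 89.8 FPKM (-0.25) and the ZP gene tyn 28.8 and 18.0 FPKM (-0.65). The septate junction genes of the list, such as sinu (141.5 and 153.1 FPKM) and the claudin gene pck (180.0 and 201.6 FPKM), were close in both libraries.

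The relatives of pio and emp were mixed. Of 12 ZP domain genes besides pio, 10 were compared, and m, which encodes the wing cuticle protein Miniature, was at least 2-fold lower at 2.84 FPKM in the wild-type library and 0.422 FPKM in the RNAi library (-1.43, or -0.53 and within 2-fold with a pseudocount of 5). The other 9 lay within 2-fold, among them zye (0.487 and 1.65 FPKM, difference 0.84), tyn and dy (1.22 and 0.444 FPKM, difference -0.62), and the median was -0.02. Of 13 class B scavenger receptor genes besides emp, 8 were compared and all 8 lay within 2-fold, with a median of -0.05. CG40006 was 5.60 and 3.29 FPKM (-0.62), Snmp2 1.57 and 1.15 FPKM (-0.26), santa-maria 3.72 and 4.53 FPKM (0.23) and CG1887 2.10 and 2.41 FPKM (0.14).

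All 8 genes of oxygen response and Trachealess turnover lay within 2-fold, with a median of -0.04. The TOR inhibitor genes chrb (35.6 and 63.5 FPKM, difference 0.82) and scyl (189.8 and 263.0 FPKM, difference 0.47), which hypoxia induces, had the largest differences. The lactate dehydrogenase gene ImpL3 was 10.2 and 8.57 FPKM (-0.23), Thor 47.0 and 41.2 FPKM (-0.19), and ago, whose product targets Trachealess for degradation, 58.4 and 56.8 FPKM (-0.04).

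Of 11 genes for signals that act on the air sac primordium, 10 had a difference below 0. The Hedgehog effector ci alone was at least 2-fold lower, at 159.3 FPKM in the wild-type library and 53.3 FPKM in the RNAi library (-1.56). Over all compared genes, 50.6% were below 0 and 3.20% at least 2-fold lower. Among the 6 markers of disc epithelium described below, 5 were below 0, with a median of -0.77. A change particular to the air sac is not read from these values. The ligand gene hh was 40.1 and 22.3 FPKM (-0.82), the receptor gene ptc 32.1 and 20.9 FPKM (-0.60) and the Notch ligand gene Ser 57.9 and 38.4 FPKM (-0.58). The matrix protease gene Mmp2, needed for air sac outgrowth, was 14.8 and 14.03 FPKM. The list's median was -0.22.

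Markers of the tissues in the sample differed gene by gene. Beside the counts below, 3.20% of all compared genes were at least 2-fold lower and 4.41% at least 2-fold higher. All 10 tracheal markers were detected in both libraries, none at 0, and their summed level was 906.2 FPKM in the wild-type library and 563.2 FPKM in the RNAi library. These 10 include the members trh and btl, so they are not separate from the set. Of the 10, obst-A and trh were at least 2-fold lower, the other 8 differed by less, and the median difference was -0.24. Among those 8, vvl was past 2-fold with both libraries scaled to equal sums. The largest part of the gap between the sums lay in obst-A (220.0 and 20.2 FPKM), and kni and knrl had higher values in the RNAi library. Of the 10, vvl and kni also act in the disc epithelium, and btl gave only 3.74 and 3.11 FPKM. In bulk discs the tissue that made the RNA of the others, obst-A included, cannot be told either. The sums therefore do not measure the amount of trachea. All 6 markers of disc epithelium were detected, with sums of 580.4 and 431.9 FPKM, and vg and ap were at least 2-fold lower, ap just past the threshold. The difference of ap was -0.99 with equal sums without the 20 highest genes and -0.96 with a pseudocount of 5, both within 2-fold, and hth had a higher value in the RNAi library (137.8 and 169.1 FPKM). All 7 haemocyte markers were detected, with sums of 56.9 and 98.9 FPKM, and He, Pxn, eater and Hml were at least 2-fold higher, of which eater and Hml lay within 2-fold, at 0.94 each, with both libraries scaled to equal sums. With a pseudocount of 5, Pxn (0.89), eater (0.65) and Hml (0.59) lay within 2-fold. The median difference of the haemocyte markers was 1.03, and 0.59 with that pseudocount. All 7 myoblast and muscle markers were detected, with sums of 69.7 and 105.2 FPKM, and the contractile muscle genes TpnC73F, wupA and Prm were at least 2-fold higher, Prm within 2-fold at 0.62 with a pseudocount of 5. The other 4, which are expressed in myoblasts, were nearly equal, with differences of 0.01 for twi, 0.04 for Mef2, -0.03 for htl and 0.0034 for stumps, and the list median was 0.04. All 5 fat body markers were detected, with sums of 3834 and 2318 FPKM, and Lsp1gamma was at least 2-fold lower (1675 and 465.4 FPKM). Fbp1 (762.4 and 801.1 FPKM) and Fbp2 (305.3 and 343.0 FPKM) had higher values in the RNAi library, and the list median was -0.62. The part of tissue composition in the values of trh, dys and bnl was not tested. The targeted gene Pc was 14.6 FPKM in the wild-type library and 13.0 FPKM in the RNAi library, a value in which reads of the transgene are not separated and which does not check the labels.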

How the data were processed

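The deposited table gives each gene in FPKM, which divides fragments by transcript length and by mapped fragments, with 1 column per RNA library, per the labels and the file header. Tools listed without roles, per the submitters' processing notes, were TopHat2 2.0.11, Cufflinks, Bowtie 1.0.0, CASAVA 1.4 and SICER, with build dm3. Annotation and filters were not given in the sources used. Libraries were unstranded, per the labels' protocols. Depth is unknown, so no counting interval is given. A row named by a dash (0.127% of the wild-type sum and 0.206% of the RNAi sum) was left out. Differences were computed in Python 3.11.15 with pandas 2.3.3, and the calculation was tested on simulated data. Symbols were matched to a Release 6 gene table, used for names and gene order, and no coordinates are given because the builds differ. H4K20me1 peaks were not analysed here at these genes, since no dm3 annotation was used. The members and lists were chosen with earlier results of these data known. Named genes are all members, Pc, the 4 largest differences and each gene past 2-fold in every related list, marker genes past 2-fold, and the 3 genes nearest to trh. Other genes named, such as neighbours, the marker genes within 2-fold, pyr, htl, stumps, sty, sim, kni, knrl, sinu, pck, ago and Mmp2, were chosen after their values were seen. One listed scavenger receptor name, CG12789, is another name of santa-maria and was counted once. Alternatives were other pseudocounts, expression minimums and scalings.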

Additional observations from a re-analysis of the deposited data

How the results depend on the processing

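With a pseudocount of 0.1, bnl was past 2-fold at -1.28, so 2 members were at least 2-fold lower, and in the related lists 5 genes were at least 2-fold lower and 1 higher. With a pseudocount of 5, trh lay within 2-fold at -0.81 and 0 members were lower. Counts of members and of related genes stayed within 1.5 times under the other 5 settings, which were no minimum, a minimum of 5 FPKM, equal sums, median centring and equal sums without the 20 highest genes. With equal sums 4 related genes were at least 2-fold lower, vvl being the added one. Equal sums moved the median of all genes to -0.10 and trh to -1.12, so trh lay about as far from that median as before. One gene, CG41421, made up 9.41% of the wild-type sum and 16.4% of the RNAi sum. The alternatives for H4K20me1 peaks were not run. No paired analysis was possible because each genotype has 1 RNA library and no result comes from a test. Low values such as those of bnl and rib have unknown depth behind them.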
